A study of Homo sapiens with 60 samples.

Results

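The genes that copy DNA and supply its nucleotides were followed in HT29 cells, an established human colorectal adenocarcinoma line, exposed for 24 h to herbal extracts. The set holds 54 of the 60675 genes in the count table. They were chosen by name for their role, with earlier results of these data known, and were sorted into 6 role groups: 15 licensing genes, 8 genes of origin firing, 9 polymerase and primase genes, 12 fork genes, 5 nucleotide enzymes, and 5 genes of chromatin assembly and S phase control. All 54 passed the filter on low counts that left 16022 genes for testing.

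The cells received 70% ethanol extracts of 6 single herbs or of 2 formulas, each at a high, medium and low dose, and 3 libraries came from cells given vehicle. Doses were 320, 64 and 12.8 µg/mL for Coptidis Rhizoma, 310, 62 and 12.4 µg/mL for Bupleuri Radix, and 500, 100 and 20 µg/mL for Zizyphi Fructus, Citri Unshius Pericarpium, Cimicifugae Rhizoma, Aconiti Lateralis Radix Preparata and the formulas Yijung-tang and Banhasasim-tang. Each dose had 2 libraries for Yijung-tang, Coptidis Rhizoma and Zizyphi Fructus, 1 for Banhasasim-tang and 3 for the other extracts. The series design states that an extract with an IC20 under 500 µg/mL was given at that IC20 and at dilutions of it. DMSO was the vehicle, at 0.1% in the sample labels and 2% in the series design. No genotype or second agent is labelled, and all 60 libraries came from the one cell line. Nothing in the labels says that replicates were separate cultures, so the p-values measure the spread between these libraries, which may be technical. The vehicle libraries carry a set number of their own and each pair of extracts shares another, so set and treatment cannot be told apart where an extract is compared with vehicle. High against low dose of one extract lies within a set and is the comparison used first.

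The libraries held 18.1 to 36.7 M counts, so that 3 counts corresponded to 0.082 to 0.17 CPM (counts scaled to the size of the library), far below the lowest member. One library, Zizyphi Fructus medium replicate 3, stood apart, with 41.8% of its counts from the mitochondrial genome, and it was the lowest of the 54 libraries without Coptidis Rhizoma for 31 members and the highest for 13. Counts of calls are given with it and, for many of the comparisons, also without it. The colon epithelial markers summed to between 4870 and 13057 CPM in all libraries, but only 6 of the 10 had a median over 10 CPM. Their medians ran from 1.1 to 5649 CPM. At high dose of Banhasasim-tang, for example, KRT8 was at 5669 and KRT18 at 3595 CPM. CDX1, CDX2, CDH17 and CEACAM5 were there at 1.18, 8.57, 5.9 and 8.49 CPM. Fibroblast markers summed to at most 3.2 CPM and endothelial markers to at most 2.54 CPM, with KDR at 0 in every library. The leukocyte list reached 2014 CPM, nearly all of it from LYZ, whose median was 1801 CPM.

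Before S phase, the origin recognition complex (ORC1 to ORC6) binds origins and, with CDC6 and CDT1, loads the MCM2 to MCM7 helicase, a step that geminin (GMNN) blocks once it is done. The kinase CDC7 with DBF4, together with MCM10, CDC45 and the GINS complex, then turns the loaded ring into an active helicase, and the polymerases follow with their clamp, clamp loader and ligase. Deoxynucleotides come from ribonucleotide reductase, thymidylate synthase, thymidine kinase and dUTPase, and many of these genes are known targets of E2F transcription factors, active as cells pass from G1 into S phase. In proliferating tumour lines such as HT29 the whole set is normally transcribed.

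In vehicle, the level per kilobase of exon ranged from 1.74 CPM per kb for GINS4 to 166 for PCNA, the sliding clamp, with a median of 14.3. MCM7 followed at 92.3 CPM per kb, TK1 at 91.7, FEN1 at 70.5 and TYMS at 63.0. Outside the Coptidis Rhizoma groups the members varied little. The highest group mean was 1.12 times the lowest for RRM1 and 1.81 times for RFC4, with a median over the members of 1.29. The value of RFC4, a clamp loader subunit, comes from Zizyphi Fructus at medium dose, where replicate 3 was at 59.4 CPM and replicate 2 at 28.8. Without replicate 3 it was 1.26, and the members reached at most 1.37, for RPA3, with a median of 1.18. The coefficient of variation within groups, as edgeR estimated it, ran from 2.63% for POLD3 to 18.4% for DUT, with a median of 4.82%. This estimate includes Zizyphi Fructus medium replicate 3, where DUT was at 16.2 CPM, against 63.3 in replicate 2.

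Promoter windows were searched for E2F-type motifs because members moved together with Coptidis Rhizoma, as the values further on show. RefSeq windows (GRCh38.p14, 250 bases before to 50 after a start site) were found for 47 of the 54 members. MCM4, MCM5, GINS4, POLD3, RPA2, RPA3 and DNA2 had no entry. The letters TTTCCCGC, TTTCGCGC, TTTGCCGC and TTTGGCGC, on either strand, occurred in at least 1 window of 24 of the 47 members (51.1%), against 1090 of 27305 genes in the whole table (3.99%). By window, the shares were 39.1% of 64 member windows and 3.31% of 35116. MCM6, a helicase subunit, had the most matches in a window of any member, 4. The CCAAT box, searched as CCAAT on either strand, was in 59.6% of members and 39.7% of all genes. The E2F-type letters were present for 20 of 31 members (64.5%) called lower by 2-fold or more at the high than at the low dose of Coptidis Rhizoma. They were present for 4 of the other 16 (25.0%), most of which also fell, by less than 2-fold. This is a description without a test, and a part of E2F factors in the fall was not tested. The whole table includes genes that were not tested here. A match is not evidence of binding.

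Shown are, for each role in which a gene chosen by the size of its fall has a match, the one with most matches, so that the letters can be seen near the start, and ORC4, the member that rose, which had none. The choice leaves out large falls without a match. ORC1, with the largest fall (log2 -2.44), had none, nor had RRM2 (-1.70), FEN1 (-1.65) and MCM10 (-1.51). The stretches therefore do not show that match and fall go together. Each stretch runs from 220 bases before the RefSeq start to 30 bases from it onward, 5′ to 3′ on the gene's strand, with matches in capitals: CDC7 at chr1:91500892-91501141 (+), POLA2 at chr11:65261742-65261991 (+), LIG1 at chr19:48170315-48170564 (-), TYMS at chr18:657433-657682 (+), E2F1 at chr20:33686356-33686605 (-) and ORC4 at chr2:148021522-148021771 (-).
CDC7: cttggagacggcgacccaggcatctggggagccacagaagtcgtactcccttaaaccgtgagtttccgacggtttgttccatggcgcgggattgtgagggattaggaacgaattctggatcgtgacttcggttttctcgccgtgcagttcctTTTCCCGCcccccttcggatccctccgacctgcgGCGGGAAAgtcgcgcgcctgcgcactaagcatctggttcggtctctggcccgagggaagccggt
POLA2: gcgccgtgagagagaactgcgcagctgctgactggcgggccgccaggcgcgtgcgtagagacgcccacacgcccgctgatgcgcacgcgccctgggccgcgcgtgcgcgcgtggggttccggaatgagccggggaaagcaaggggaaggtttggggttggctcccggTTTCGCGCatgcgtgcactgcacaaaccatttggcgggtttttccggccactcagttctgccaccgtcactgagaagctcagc
LIG1: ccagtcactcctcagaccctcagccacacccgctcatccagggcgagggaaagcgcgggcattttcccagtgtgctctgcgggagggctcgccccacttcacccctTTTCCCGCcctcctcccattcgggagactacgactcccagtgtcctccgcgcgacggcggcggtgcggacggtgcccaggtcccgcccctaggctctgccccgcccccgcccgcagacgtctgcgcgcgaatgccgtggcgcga
TYMS: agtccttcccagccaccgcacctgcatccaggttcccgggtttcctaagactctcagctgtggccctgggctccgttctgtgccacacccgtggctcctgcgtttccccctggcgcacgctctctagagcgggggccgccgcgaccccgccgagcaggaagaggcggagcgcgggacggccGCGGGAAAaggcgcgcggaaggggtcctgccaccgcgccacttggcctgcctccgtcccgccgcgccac
E2F1: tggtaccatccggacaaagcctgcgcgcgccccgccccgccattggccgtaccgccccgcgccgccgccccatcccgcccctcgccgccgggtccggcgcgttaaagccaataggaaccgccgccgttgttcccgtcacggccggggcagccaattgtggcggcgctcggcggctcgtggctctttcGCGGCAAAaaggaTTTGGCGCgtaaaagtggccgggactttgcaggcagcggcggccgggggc
ORC4: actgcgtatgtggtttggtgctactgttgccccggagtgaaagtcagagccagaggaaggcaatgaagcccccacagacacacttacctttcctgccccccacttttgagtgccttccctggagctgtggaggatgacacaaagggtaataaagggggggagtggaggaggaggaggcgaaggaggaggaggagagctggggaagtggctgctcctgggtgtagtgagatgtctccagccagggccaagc
The pair in CDC7 began 68 and 34 bases before the start, the pair in E2F1 33 and 20 bases, and the single matches 114 bases before it in LIG1, 53 in POLA2 and 39 in TYMS.

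With Coptidis Rhizoma, 50 of the 54 members fell from the low to the high dose and 1 rose. The median log2 change was -1.12, a fold of 0.461, while the median over all tested genes was -0.02. All genes of origin firing, of the polymerases, of nucleotide supply and of the chromatin group were lower, and the exceptions lay in the origin recognition complex and the clamp loader. ORC4 was higher by 0.71, and ORC2, ORC5 and RFC1 did not pass the threshold. The response of the transcriptome was broad: 56.2% of all tested genes were called, 28.4% lower and 27.8% higher, beside 92.6% and 1.85% of the members. A fall of at least 2-fold was called in 34 members (63.0%) and in 8.77% of all tested genes. In 45 members (83.3%) both libraries at high dose lay below each of the other 58 libraries, as they did for 17.9% of all tested genes. The calls are from edgeR's quasi-likelihood test with Benjamini-Hochberg adjustment over all tested genes, at 0.05. Without Zizyphi Fructus medium replicate 3, 50 members fell and 2 rose, among 63.8% of all tested genes.

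**Figure D1:**
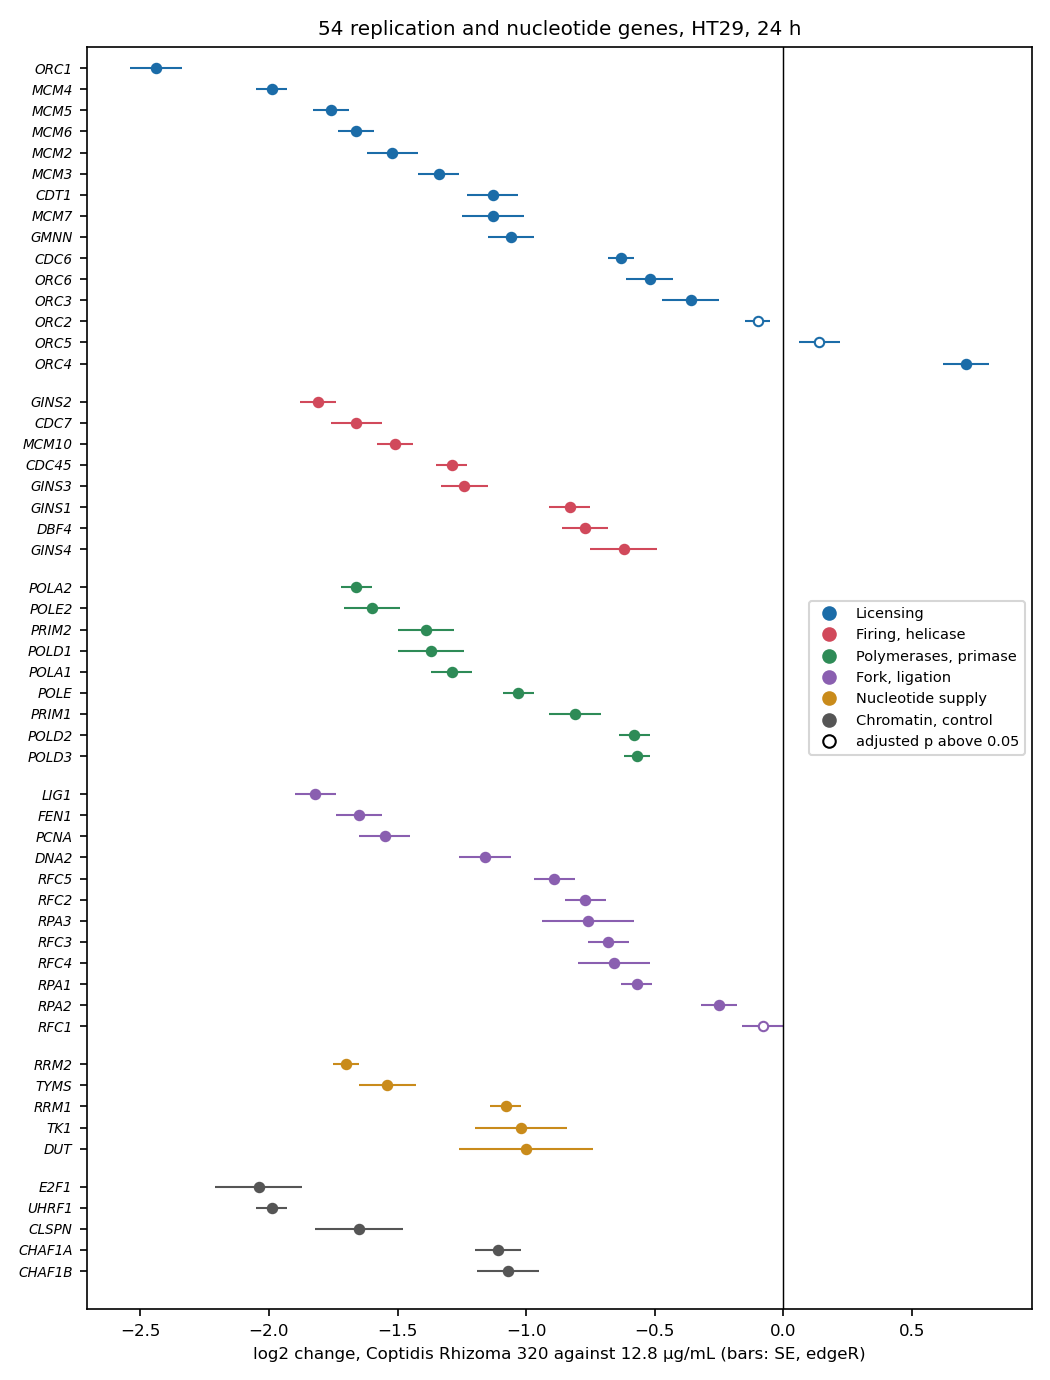
Log2 change of each of the 54 genes between 320 and 12.8 µg/mL of Coptidis Rhizoma (2 libraries each), with the standard error from edgeR as bars and colours for the role groups. Filled points passed the adjusted threshold of 0.05; ORC1 lies lowest at -2.44 and ORC4 highest at 0.71.

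CPM is a share of each library scaled by TMM, and in bulk RNA a smaller number of cells in S phase and less RNA per cell cannot be told apart. With scaling by total counts alone, the median of all genes moved from -0.02 to 0.11 and that of the members from -1.12 to -0.99, with 49 lower and 1 higher, and RPA2 no longer passed. Other measures moved with the dose. Mitochondrial ribosomal RNA took 10.5 and 9.79% of counts in the libraries at low dose, 6.45 and 6.27% at medium and 1.64 and 1.57% at high dose, and 1.07 to 1.15% in vehicle. The colon epithelial markers summed to 8621 and 8668 CPM at high dose against 11361 to 13057 in vehicle, and the leukocyte list to 1487 and 1545 against 1730 to 1867. The fibroblast list summed to 2.82 and 3.06 CPM against 1.84 to 2.48, and the endothelial list to 0.193 and 0.298 against 1.31 to 1.66. Their part in the result was not tested.

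Licensing genes gave the widest spread, with 12 of 15 lower, 1 higher and a median log2 change of -1.13. ORC1, the largest and cell cycle regulated subunit of the origin recognition complex (GENCODE 29, GRCh38, chromosome 1, 52372829 to 52404459, minus strand), was at 29.9, 32.2 and 32.7 CPM in vehicle. Its levels were 30.3 and 31.1 at low, 29 and 30.1 at medium and 5.44 and 5.92 CPM at high dose. Every other library was thus far above the pair at high dose. The fall from low to high dose was 5.41-fold (log2 -2.44 ± 0.10 SE, edgeR adjusted p = 2.7e-23). ORC4 (chromosome 2, 147930397 to 148021604, minus strand), another subunit of the same complex, was at 44.6, 45.0 and 46.3 CPM in vehicle and at 49.0 and 46.2 at low dose. It reached 48.6 and 47.9 CPM at medium and 77.5 and 78.6 at high dose, so that only the high dose stood apart. The rise was 1.64-fold (0.71 ± 0.09, edgeR adjusted p = 3e-09). ORC3 fell by 0.36 ± 0.11 and ORC6 by 0.52 ± 0.09, both past the threshold. ORC2 changed by -0.10 ± 0.05 (adjusted p = 0.07) and ORC5 by 0.14 ± 0.08 (adjusted p = 0.1), neither past the threshold, and without Zizyphi Fructus medium replicate 3 the count of members that rose went from 1 to 2. The subunits of one complex therefore spanned log2 changes of -2.44 to 0.71.

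The 6 subunits of the MCM helicase ring fell together, and none was left near its level in vehicle. MCM4 (chromosome 8, 47960185 to 47978160, plus strand) was at 326, 315 and 325 CPM in vehicle, 324 and 333 at low, 290 and 306 at medium, and 80.5 and 84.4 CPM at high dose. Its fall was 3.98-fold (log2 -1.99 ± 0.06, edgeR adjusted p = 2.9e-28). MCM5 fell 3.39-fold, MCM6 3.16-fold, MCM2 2.86-fold, MCM3 2.54-fold and MCM7 2.19-fold. Of the loading factors, CDT1 fell 2.18-fold, whereas CDC6, the ATPase that recruits the ring, fell 1.54-fold, from 76.0 and 76.9 CPM to 49.7 and 49.4. Geminin, which inhibits CDT1, fell 2.08-fold. On the log2 scale the loader changed by -1.13 ± 0.10 and its inhibitor by -1.06 ± 0.09.

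All 8 genes of origin firing and of the active helicase fell, with a median log2 change of -1.27. GINS2, a subunit of the GINS complex, was at 43.2, 39.3 and 39.1 CPM in vehicle, 38.6 and 36.2 at low, 33.9 and 34.6 at medium and 10.4 and 10.8 CPM at high dose. It fell 3.52-fold (-1.81 ± 0.07, edgeR adjusted p = 2.8e-23). Its partners fell less: GINS3 by 1.24 ± 0.09, GINS1 by 0.83 ± 0.08 and GINS4, the smallest change of the group and the member of lowest level per kilobase, by 0.62 ± 0.13. CDC7, the kinase that fires origins, was at 25.7, 27.9 and 30 CPM in vehicle, 29.8 and 29.6 at low, 28 and 31.5 at medium, and 8.93 and 9.88 CPM at high dose. It fell 3.16-fold (-1.66 ± 0.10, edgeR adjusted p = 6.6e-18), and its activating subunit DBF4 fell 1.71-fold. MCM10 and CDC45, which complete the helicase, fell 2.84-fold and 2.45-fold.

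The 9 polymerase and primase genes were all lower, by a median of -1.29. POLA2, the regulatory subunit of polymerase alpha, was at 65.4, 65.3 and 65.0 CPM in vehicle, 63.2 and 63.8 at low, 60.5 and 61.9 at medium and 20.3 and 19.8 CPM at high dose, a 3.17-fold fall (-1.66 ± 0.06, edgeR adjusted p = 2.2e-25). POLE2, a small subunit of the leading-strand polymerase epsilon, went from 15.1 and 14.0 CPM to 4.43 and 5.17 (-1.60 ± 0.11), and the catalytic subunit POLE fell by 1.03 ± 0.06. Of polymerase delta, the catalytic subunit POLD1 fell 2.59-fold. Its accessory subunits POLD2 and POLD3 fell 1.5-fold and 1.49-fold, the smallest falls in the group. PRIM2 and PRIM1, the primase subunits, fell 2.62-fold and 1.76-fold, and POLA1, the catalytic subunit of polymerase alpha, 2.45-fold. In GENCODE 29 the exons of POLA2 share 53.7% of their bases with another gene on the same strand, those of PRIM1 26.0%, those of POLD1 12.1% and those of RRM2 27.9%. Counting may have split their reads, so these values are uncertain.

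Fork genes fell least as a group, with 11 of 12 lower and a median of -0.77, and subunits of one complex could differ. LIG1, the ligase that joins Okazaki fragments, was at 111, 110 and 106 CPM in vehicle, 89.6 and 92.7 at low, 81.5 and 87.2 at medium and 26.2 and 25.6 CPM at high dose. The fall from low to high dose was 3.52-fold (-1.82 ± 0.08, edgeR adjusted p = 4.3e-23). FEN1, the flap nuclease of the same step, went from 148 and 152 CPM at low dose to 46.7 and 49.1 at high dose (-1.65 ± 0.09), and PCNA from 226 and 212 to 70.2 and 78.8 (-1.55 ± 0.10). DNA2, a nuclease and helicase, fell 2.24-fold. The clamp loader was not uniform. Its large subunit RFC1 was at 83.5, 87.6 and 88.0 CPM in vehicle, 91.5 and 90.4 at low, 94.4 and 95.6 at medium and 85.3 and 86.5 CPM at high dose. Its change of -0.08 ± 0.08 did not pass (edgeR adjusted p = 0.4), and its level at high dose lay within the range of the vehicle libraries. The small subunits RFC2 to RFC5 fell by 0.77, 0.68, 0.66 and 0.89 on the log2 scale. Of the single-strand binding protein RPA, RPA3 fell by 0.76 ± 0.18, RPA1 by 0.57 ± 0.06 and RPA2 by 0.25 ± 0.07.

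All 5 nucleotide enzymes fell, with a median of -1.08. RRM2, the regulated small subunit of ribonucleotide reductase, was at 271, 285 and 296 CPM in vehicle, 293 and 288 at low, 263 and 270 at medium and 90.3 and 88.7 CPM at high dose. It fell 3.24-fold (-1.70 ± 0.05, edgeR adjusted p = 4.6e-29), while the large subunit RRM1 fell 2.12-fold, from 239 and 237 CPM to 111 and 114. TYMS, thymidylate synthase, was at 160, 155 and 152 CPM in vehicle, 137 and 130 at low, 134 and 133 at medium and 45.1 and 46.7 CPM at high dose, a 2.91-fold fall (-1.54 ± 0.11, edgeR adjusted p = 1.2e-15). Its exons share 58.2% of their bases with ENOSF1 on the opposite strand, as do 30.7% of MCM2, 21.2% of GINS4, 17.2% of DUT and 16.5% of GINS3 with other genes. No source used here says whether the counting used strand, so reads of such partners may be included. TK1, which salvages thymidine, fell by 1.02 ± 0.18. DUT, which removes dUTP, changed least of the group (-1 ± 0.26, edgeR adjusted p = 0.0012), with 60.4 and 58.2 CPM at low and 30.9 and 28.3 at high dose.

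The genes of chromatin assembly and S phase control had the lowest median, -1.65, and all 5 fell. E2F1, the transcription factor that drives entry into S phase, was at 81.6, 74.2 and 74.2 CPM in vehicle, 71.1 and 71.0 at low, 69.2 and 68.1 at medium and 17.0 and 17.5 CPM at high dose. The fall was 4.12-fold (-2.04 ± 0.17, edgeR adjusted p = 6.7e-14). UHRF1, which passes DNA methylation marks to the new strand, was at 102, 102 and 107 CPM in vehicle, 94.3 and 97.1 at low, 92.2 and 92.6 at medium and 24.7 and 23.4 CPM at high dose (3.98-fold lower, -1.99 ± 0.06, edgeR adjusted p = 7.3e-29). For both genes the pair at high dose lay apart from every other library shown here. CLSPN, claspin, the fork mediator of the CHEK1 response, fell 3.15-fold. CHAF1A and CHAF1B, which deposit histones behind the fork, fell 2.16-fold and 2.10-fold.

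Most of the change lay between 64 and 320 µg/mL. From low to medium dose no member passed the threshold in edgeR, where 1.35% of all tested genes did (0.974% higher, 0.374% lower), and the log2 changes ran from -0.23 for PRIM2 to 0.25 for PRIM1. At an unadjusted p under 0.05 there were 5 members, of which 1 was higher, and DESeq2 called 0. Without Zizyphi Fructus medium replicate 3, FEN1 (-0.22 ± 0.05) and MCM4 (-0.14 ± 0.04) were called among 3.92% of all tested genes. From medium to high dose, 49 members fell and 2 rose, ORC4 by 0.69 ± 0.09 and ORC5 by 0.20 ± 0.08, with 52.7% of all tested genes called, 26.7% lower and 26.0% higher. As a percentage of the vehicle mean, the median of the members was 97.2 at the low dose, 94.9 at the medium and 45.0 at the high dose. At high dose the members ranged from 18.0% for ORC1 to 172% for ORC4, and at low dose from 74.5% for CLSPN to 116% for PRIM1.

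**Figure D2:**
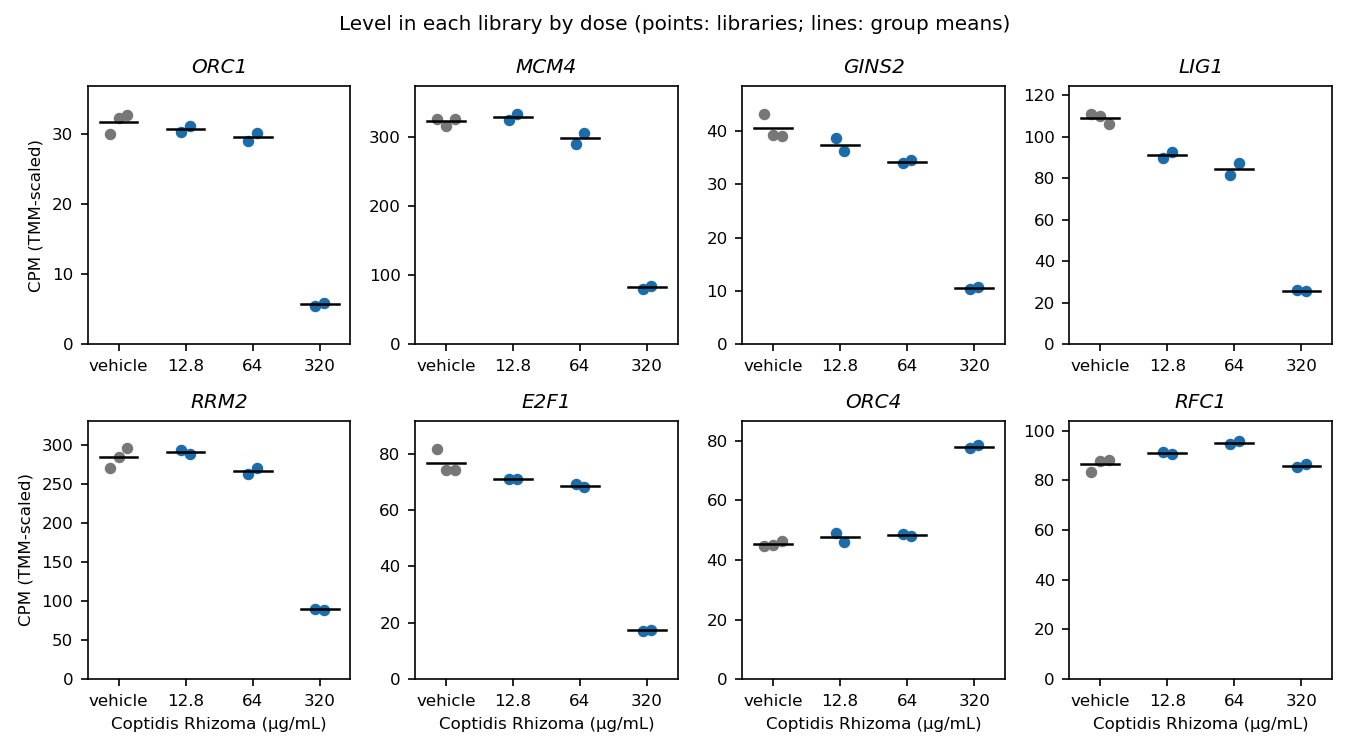
CPM of 8 members in each library of vehicle (grey) and of Coptidis Rhizoma at 12.8, 64 and 320 µg/mL (blue), with lines at the group means and axes from 0. Most of the fall of ORC1, MCM4, GINS2, LIG1, RRM2 and E2F1 appears at 320 µg/mL. LIG1, GINS2 and E2F1 already lie somewhat below all vehicle libraries at 12.8 µg/mL. ORC4 is higher at 320 µg/mL (77.5 and 78.6 CPM), and RFC1 stays between 83.5 and 95.6 CPM.

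Against vehicle, the high dose gave 50 members lower and 2 higher (62.9% of all tested genes called, 32.0% lower and 30.9% higher), ORC4 by 0.78 ± 0.08 and ORC5 by 0.15 ± 0.07 (edgeR adjusted p = 0.047). At the low dose 2 members were lower than vehicle, LIG1 by 0.26 ± 0.07 and POLD2 by 0.21 ± 0.05, beside 6.12% of all tested genes (2.29% lower and 3.83% higher). Without vehicle replicate 1 that count was 0, and without vehicle replicate 3 it was 5. Shares of all tested genes are not given for these 2 fits, so they show only how the calls move. Without Zizyphi Fructus medium replicate 3 it was 12, among 18.9% of all tested genes.

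Lists of related genes, chosen like the members with earlier results of these data known, were read beside the set. In the comparison used for them 56.2% of all tested genes were called, about as many lower as higher. Of 21 further replication genes, 16 fell and 3 rose between the low and the high dose of Coptidis Rhizoma, with a median of -0.59. TICRR, which brings CDC45 to origins, fell from 56.8 ± 6.1 to 23.6 ± 0.19 CPM (SD, n = 2 each; -1.27 ± 0.09), and WDHD1, which ties polymerase alpha to the fork, fell by 1.12 ± 0.08. POLD4, the smallest subunit of polymerase delta, rose by 0.61 ± 0.12 and TOP1, topoisomerase I, by 0.37 ± 0.08. The falling accessory subunits of polymerase delta and the rising one thus belong to the same enzyme.

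Of 21 further genes of nucleotide metabolism, 16 fell and 3 rose, with a median of -0.52. SLC29A1, a nucleoside transporter, fell from 57.4 ± 2.5 to 16.8 ± 1.3 CPM (-1.77 ± 0.06), and PFAS, an enzyme of purine synthesis, fell by 1.04 ± 0.12. SAMHD1, which degrades deoxynucleotides, rose from 34.1 ± 0.084 to 79.9 ± 7.3 CPM (1.23 ± 0.07, edgeR adjusted p = 7.3e-18). RRM2B, the p53-inducible small subunit of ribonucleotide reductase, rose from 34.8 ± 0.29 to 51.2 ± 2.2 CPM (0.56 ± 0.08). The S phase subunit RRM2 fell and its alternative RRM2B rose in the same pair of groups.

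Of 7 further chromatin genes 6 fell and 1 rose, with a median of -0.98. The remodeller HELLS fell by 1.58 ± 0.07 and the histone chaperone NASP by 1.18 ± 0.09, whereas the chaperone ASF1A rose by 0.93 ± 0.09. Among 15 genes of the E2F and RB control, 11 fell and 1 rose. Cyclin E2, CCNE2, fell from 13.7 ± 0.40 to 2.09 ± 0.35 CPM (-2.72 ± 0.14), E2F2 fell by 2.04 ± 0.14, and E2F5, an E2F of the repressor class, rose by 0.49 ± 0.08. Of 8 genes of the S phase checkpoint 3 fell and 2 rose, a share called near the 56.2% of all tested genes. These counts are therefore not read as a result about that list. CHEK1 changed by -0.76 ± 0.05, RAD9A by -0.54 ± 0.11, RAD17 by 0.91 ± 0.13 and HUS1 by 0.35 ± 0.10. Of 24 genes of mitosis, 20 fell and none rose, with a median of -0.38. The largest were MAD2L1 at -0.79 ± 0.10 and MKI67 at -0.75 ± 0.21. No test of the difference between lists was made.

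In the other 7 extracts the members moved little between low and high dose. The medians ran from 0.01 with Bupleuri Radix to 0.10 with Citri Unshius Pericarpium, and no member changed by more than 0.39 on the log2 scale. No member was called in edgeR with Zizyphi Fructus (0% of all tested genes called), Citri Unshius Pericarpium (0.144%), Cimicifugae Rhizoma (0.874%), Yijung-tang (0.206%) or Banhasasim-tang (1.73%). Members at an unadjusted p under 0.05 numbered 1, 15, 2, 7 and 5 in these extracts, all of them higher at high dose, and DESeq2 called 1 with Citri Unshius Pericarpium and 0 with the others. With Citri Unshius Pericarpium 51 of 54 members had a positive change, but none was larger than 0.23. The share of all tested genes is not given for a positive change or for any count at an unadjusted p. These counts are therefore not read as results about the members. Without Zizyphi Fructus medium replicate 3, 3 members were called there (1.42% of all tested genes), MCM4 by 0.13 ± 0.03, RPA2 by 0.17 ± 0.05 and RFC3 by 0.21 ± 0.05. In that fit RFC3 was also called with Yijung-tang (1.01% of all tested genes) and CDC45 with Banhasasim-tang (3.84%), 1 member each.

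**Figure D3:**
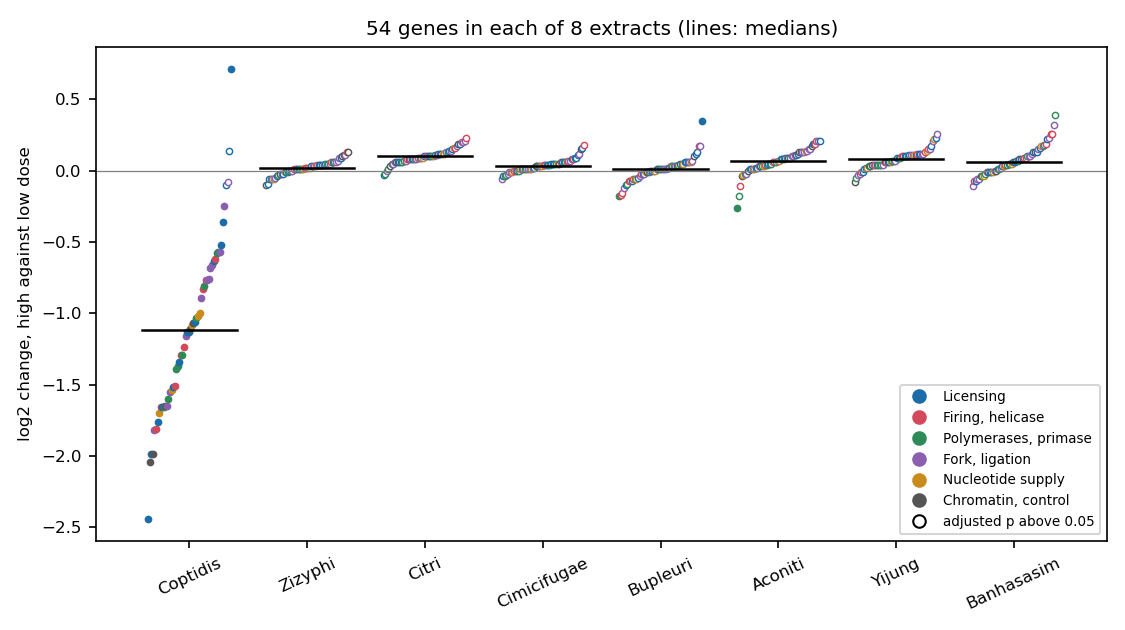
Log2 change from low to high dose of each of the 54 genes in each of the 8 extracts, sorted within an extract, with lines at the medians, colours for the role groups and filled points for an adjusted p of at most 0.05. Coptidis Rhizoma has its median at -1.12, and the other medians lie between 0.01 and 0.10.

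The largest changes in the extracts without a call did not pass after adjustment. GINS4 changed most with Zizyphi Fructus (0.13 ± 0.12), Citri Unshius Pericarpium (0.23 ± 0.10) and Cimicifugae Rhizoma (0.18 ± 0.10). With Citri Unshius Pericarpium it stood at 9.12, 9.55 and 7.25 CPM at low and at 10.5, 9.74 and 9.97 at high dose, so that the groups were adjacent without overlap. RFC3 was at 80.6 and 78.8 CPM at low and 92.8 and 97.8 at high dose of Yijung-tang (0.26 ± 0.08, edgeR adjusted p = 0.26). PRIM1 was at 18.6 CPM at low and 24.4 at high dose of Banhasasim-tang, with 1 library each and the spread taken from the other groups (0.39 ± 0.13, edgeR adjusted p = 0.18).

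Bupleuri Radix and Aconiti Lateralis Radix Preparata each had 2 members called, 1 higher and 1 lower, beside 12.9% (6.34% higher, 6.59% lower) and 2.71% (0.474% higher, 2.23% lower) of all tested genes. CDC6, the loader of the MCM ring, was at 76.8, 79.4 and 76.5 CPM at low, 80.3, 78.3 and 84.1 at medium and 96.0, 98.9 and 101 CPM at high dose of Bupleuri Radix. It was 1.27-fold higher at high dose (0.35 ± 0.04, edgeR adjusted p = 1.6e-08), and the groups did not overlap. With Aconiti Lateralis Radix Preparata it went from 75.7, 76.2 and 77.6 CPM to 87.7, 84.5 and 90.2 (0.19 ± 0.04, edgeR adjusted p = 0.0022). CDC6 was thus called higher with both extracts of this library set. With Bupleuri Radix the call held in every alternative tried, but with Aconiti Lateralis Radix Preparata it was lost with no filter on low counts (0.19 ± 0.07, edgeR adjusted p = 0.38) and with total counts alone (0.21 ± 0.08, edgeR adjusted p = 0.35). POLD3, an accessory subunit of polymerase delta, fell with Bupleuri Radix from 58.7, 61.5 and 56.1 to 51.2, 51.1 and 53.4 CPM (-0.18 ± 0.04, edgeR adjusted p = 0.0016). That call too was lost with no filter (adjusted p = 0.25 in edgeR) and with total counts alone (adjusted p = 0.13). POLA1 fell with Aconiti Lateralis Radix Preparata from 37.0, 38.8 and 43.0 to 33.6, 33.6 and 32.0 CPM (-0.26 ± 0.06, edgeR adjusted p = 0.0064). The call of POLA1 was lost with no filter (adjusted p = 0.079 in edgeR) and with total counts alone (adjusted p = 0.29). It was also lost without high replicate 3 (adjusted p = 0.065) or without low replicate 3 (adjusted p = 0.13), which left 1 call in that extract. Without Zizyphi Fructus medium replicate 3, each of the 2 extracts had 8 members called, among 22.7% and 6.20% of all tested genes. In that fit DBF4 and RFC3 rose and MCM6, CDC7, GINS1 and LIG1 fell with Bupleuri Radix, while ORC6, CDC7, RPA2, DNA2, FEN1 and GINS3 rose with Aconiti Lateralis Radix Preparata.

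**Figure D4:**
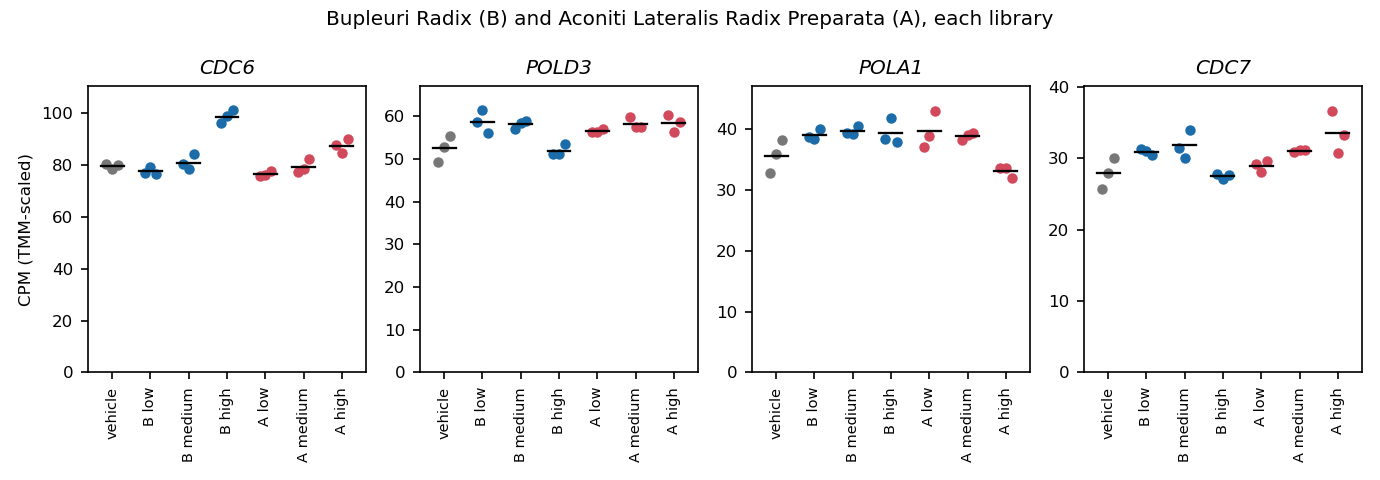
CPM of CDC6, POLD3, POLA1 and CDC7 in each library of vehicle (grey), Bupleuri Radix (blue) and Aconiti Lateralis Radix Preparata (red) at 3 doses, with lines at the group means and axes from 0. CDC6 at high dose of Bupleuri Radix (96.0 to 101 CPM) lies above the other libraries, and CDC7 at high dose is lower with Bupleuri Radix (27.1 to 27.8 CPM) than with Aconiti Lateralis Radix Preparata (30.8 to 36.6 CPM).

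Extracts of one library set were compared at high dose, although their doses differed for 2 of the 4 pairs. Coptidis Rhizoma at 320 and Zizyphi Fructus at 500 µg/mL differed in 52 members (56.8% of all tested genes), of which 51 were lower with Coptidis Rhizoma (28.8%) and 1, ORC4, higher (28%). ORC1 was at 31.9 and 33.3 CPM with Zizyphi Fructus (-2.52 ± 0.10, edgeR adjusted p = 7.1e-24) and UHRF1 at 110 and 103 (-2.15 ± 0.06). The change from low to high dose itself differed between these extracts in 50 members (42.9% of all tested genes), 49 of them lower (21.8%) and 1 higher (21.0%) with Coptidis Rhizoma. Bupleuri Radix at 310 and Aconiti Lateralis Radix Preparata at 500 µg/mL differed in 9 members (21.1% of all tested genes, 10.2% higher and 10.9% lower). With Bupleuri Radix, CDC6, POLA1 and PRIM2 were higher and CDC7, POLA2, GINS3, POLD3, MCM6 and LIG1 lower. The largest differences were CDC7, at 27.8, 27.1 and 27.7 against 36.6, 30.8 and 33.3 CPM (-0.29 ± 0.07, edgeR adjusted p = 0.0035), and PRIM2, at 24.3, 22.3 and 25.2 against 19.0, 19.8 and 20.3 CPM (0.28 ± 0.08, edgeR adjusted p = 0.0094). The call of CDC7 was lost without Aconiti Lateralis Radix Preparata high replicate 1 and that of PRIM2 without Bupleuri Radix high replicate 3, each with an edgeR adjusted p = 0.055. The dose changes of these 2 extracts differed in 3 members (8.52% of all tested genes): CDC7 (-0.38 ± 0.10), POLA1 (0.27 ± 0.09) and POLD3 (-0.23 ± 0.06). Without Zizyphi Fructus medium replicate 3, the dose changes differed in 9 members (17.0%) and the high doses in 13 (32.9%). With no filter on low counts, 3 members differed at high dose and 0 in dose change, with shares of all tested genes not given here.

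Citri Unshius Pericarpium and Cimicifugae Rhizoma, both at 500 µg/mL, differed in no member (0.905% of all tested genes called in edgeR, 1 member at an unadjusted p under 0.05, 0 by DESeq2). Yijung-tang and Banhasasim-tang, both at 500 µg/mL, also had no call (1.57%, 2 members at an unadjusted p under 0.05, 1 by DESeq2, and 1 without Zizyphi Fructus medium replicate 3). Their changes from low to high dose differed in no member either, with 0.200% and 0.462% of all tested genes called, and 1 and 0 members at an unadjusted p under 0.05. DESeq2 called 0 in both. The differences between Citri Unshius Pericarpium and Cimicifugae Rhizoma ran from -0.05 for ORC1 to 0.21 for RPA3, and those between the formulas from -0.19 for GINS4 to 0.22 for TK1.

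Against vehicle, the 7 extracts other than Coptidis Rhizoma differed in 1 to 15 members at high or low dose, by at most 0.45 on the log2 scale at high dose. At high dose the members called numbered 5 with Zizyphi Fructus (6.90% of all tested genes), 12 with Citri Unshius Pericarpium (13.2%), 12 with Cimicifugae Rhizoma (18.0%), 10 with Bupleuri Radix (27.0%), 15 with Aconiti Lateralis Radix Preparata (17.3%), 12 with Yijung-tang (7.65%) and 5 with Banhasasim-tang (7.60%). At low dose they numbered 5 (6.04%), 11 (14.1%), 6 (13.6%), 7 (14.5%), 8 (14.5%), 4 (7.61%) and 1 (3.22%) in the same order. RPA3 gave the largest difference in any of these groups at high dose, -0.45 with Cimicifugae Rhizoma, which was -0.26 ± 0.15 and no longer called without vehicle replicate 1. All of these comparisons share the 3 vehicle libraries. Without vehicle replicate 1 the counts were 0 to 6 at high and 0 or 1 at low dose, with shares of all tested genes not given here. Without Zizyphi Fructus medium replicate 3 they were 15 to 26 at high dose (18.9 to 40.2% of all tested genes) and 7 to 24 at low dose (16.8 to 30.8%).

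Side by side, RRM2 differed from vehicle at high dose by 0.15 with Zizyphi Fructus, 0.25 with Citri Unshius Pericarpium, 0.15 with Cimicifugae Rhizoma, 0.13 with Bupleuri Radix, 0.15 with Aconiti Lateralis Radix Preparata and 0.22 with Yijung-tang, all called, and by 0.04 with Banhasasim-tang. Without vehicle replicate 1 the calls with Citri Unshius Pericarpium (0.21) and Yijung-tang (0.18) held and the others were lost. POLE, the leading-strand polymerase, differed by 0.18, 0.20, 0.14, 0.13, 0.14, 0.22 and 0.23 in that order, all called. Vehicle replicate 1 was at 115 CPM of POLE, against 137 and 133 in the other vehicle libraries, and without it the differences were 0.10, 0.13, 0.07, 0.06, 0.07, 0.15 and 0.16, none of them called in edgeR. TYMS differed by -0.13, -0.17, -0.22, -0.21, -0.28, -0.20 and -0.28, of which only that with Aconiti Lateralis Radix Preparata was called, and that call was lost without vehicle replicate 1 (-0.27 ± 0.09, edgeR adjusted p = 0.077). The vehicle libraries themselves spread: TK1 was at 184, 171 and 157 CPM and RPA3 at 47.7, 33.8 and 32.2. Vehicle replicate 1 was the highest of the 54 libraries without Coptidis Rhizoma for 14 members and the lowest for 7.

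**Figure D5:**
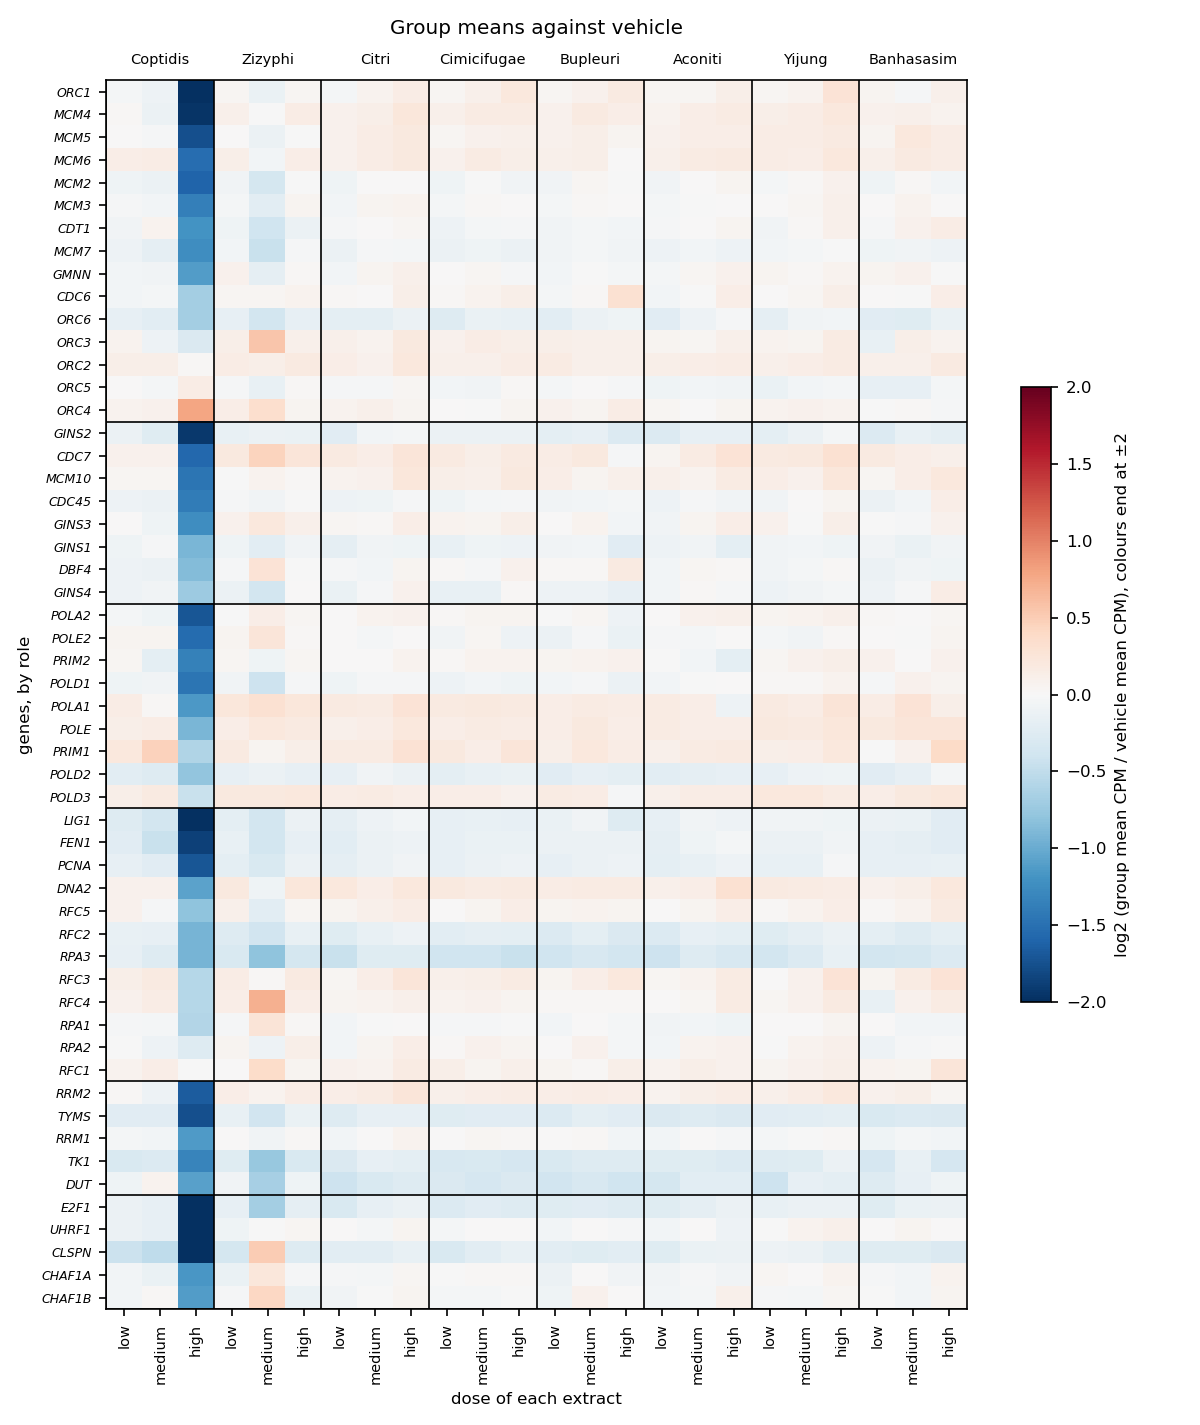
Log2 ratio of each group mean CPM to the vehicle mean for the 54 genes (rows, by role) and the 24 extract and dose groups (columns), with colours ending at ±2. The column of Coptidis Rhizoma at high dose is blue in nearly all rows, with ORC4 red, and the uneven column of Zizyphi Fructus at medium dose includes replicate 3, the library with 41.8% of counts from the mitochondrial genome.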

How the data were processed

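Expected counts per gene were deposited by the authors, not scaled to depth, and the submitters' processing notes list RSEM 1.3.3, STAR 2.7.3a, FastQC 0.11.9 and Trim Galore 0.6.5, with GRCh38 as the build. The annotation used for counting was not named in any source used here. Per the labels, 1 µg of RNA with a RIN above 7 went into directional libraries read as 100 bp pairs. Of 270 columns, 210 were not analysed here. Values, 91.0% of them whole, were rounded. Gene symbols came from the reference table (93.2% of IDs), positions from GENCODE 29, and promoters from RefSeq.

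In edgeR 4.0.16 (R 4.3.3), 16022 genes reached 0.5 CPM in 3 or more libraries and were kept. After TMM scaling, 1 quasi-likelihood model with 25 group means covered the 60 libraries (35 residual degrees of freedom, common dispersion 0.00613). A total of 34 comparisons were tested, each adjusted by Benjamini and Hochberg over all tested genes, at 0.05. The standard error is the log2 change over the square root of F. A group with 1 library was assumed to vary like the others. The code was tested on simulated data. Depth was 18.1 to 36.7 M counts, and floors cover counting error only. Alternatives were DESeq2 1.42.0, other size factors, no filter, no mitochondrial-genome genes, the compared groups alone, a replicate block, and leaving out each library of a comparison.

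The members and lists were chosen with earlier results of these data known. Named genes were, per role, the 2 largest falls, the smallest change and any rise with Coptidis Rhizoma, the 3 largest calls (or the largest change) with other extracts, the 2 largest calls between extracts, and the 2 largest falls and rises of each further list. Other members are given as examples, and members are all shown in the plots.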

Additional observations from a re-analysis of the deposited data

Results flagged for a closer look

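The change from low to high dose differed between Coptidis Rhizoma and Zizyphi Fructus, extracts of one library set, in 50 of the 54 members by edgeR's test of the difference. In that test 42.9% of all tested genes were called. The largest differences were -2.45 on the log2 scale for ORC1 and -2.12 for UHRF1, where 2 libraries of each dose stood behind each change. The changes of Bupleuri Radix and Aconiti Lateralis Radix Preparata differed in 3 of the 54 members, a smaller share than the 8.52% of all tested genes. That count is therefore not read as a result about the members. CDC7 was at -0.38 and POLA1 at 0.27. These last calls were lost in some fits with 1 library left out: that of CDC7 without Aconiti Lateralis Radix Preparata high replicate 1 (-0.31, adjusted p = 0.074), and that of POLA1 without any 1 of 5 libraries, with edgeR adjusted p-values from 0.064 to 0.15.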

How the results depend on the processing

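The fall with Coptidis Rhizoma held in every alternative tried, with 50 to 53 members called from low to high dose. Of the single-gene values under the alternatives, 682 kept their direction and side of the threshold, 20 were no longer called, 3 became called and 2 changed sign with total counts alone, ORC2 (0.03) and RFC1 (0.05), neither of them called. Counts of members called elsewhere moved as follows, extracts by first name. Shares of all tested genes under each alternative are not given beside them. The counts thus show how the calls move and are not results about the members. With DESeq2's Wald test the counts were 1 for Citri from low to high dose, 9 for Zizyphi high against vehicle, 4 for Coptidis, 10 for Cimicifugae, 7 for Yijung and 2 for Banhasasim low against vehicle, and 1 between Yijung and Banhasasim. With no filter on low counts they were 1 for Bupleuri and 0 for Aconiti from low to high dose. Against vehicle they were then 2 for Zizyphi, 6 for Citri, 5 for Cimicifugae, 6 for Aconiti, 1 for Yijung and 1 for Banhasasim at high dose, and 2 for Zizyphi and 6 for Citri at low dose, and 3 and 0 for Bupleuri against Aconiti at high dose and in dose change. For Coptidis low against vehicle the count was 3. With the compared groups fitted alone the counts from low to high dose were 7 for Bupleuri, 7 for Aconiti and 3 for Yijung, and 1 for Coptidis from low to medium. Against vehicle they were 0 for Zizyphi, 4 for Cimicifugae, 5 for Aconiti, 0 for Yijung and 0 for Banhasasim at high dose, and 0 for Coptidis, 0 for Zizyphi, 4 for Citri, 3 for Cimicifugae, 3 for Bupleuri, 0 for Yijung and 0 for Banhasasim at low dose. Between extracts they were 15 for Bupleuri and Aconiti, 6 for Yijung and Banhasasim, and 9 for the dose change of Bupleuri and Aconiti. With total counts alone they were 0 for Aconiti from low to high dose. Against vehicle they were 1, 4, 0, 3, 5, 1 and 0 at high dose for Zizyphi, Citri, Cimicifugae, Bupleuri, Aconiti, Yijung and Banhasasim, and 1, 1, 0, 3, 1, 0, 0 and 0 at low dose for Coptidis and then the same order. Bupleuri and Aconiti differed in 4 members at high dose and in 1 in dose change. The cause was not tested. With a replicate block Coptidis stayed at 51 from low to high dose, and Banhasasim had 3 members called against vehicle at high and 3 at low dose. No extract met the rule for pairing, all correlations of same-numbered libraries above 0.1 (-0.06 to 0.32). The replicate block was therefore kept as an alternative. In 4 of 4 extracts with 3 pairs, however, each library correlated best with its own number, so pairing by number is not excluded there.

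Leaving out 1 library in turn, Zizyphi medium replicate 3 included, gave 50 to 52 members for Coptidis, 0 to 0 for Zizyphi, 0 to 3 for Citri, 0 to 0 for Cimicifugae, 2 to 8 for Bupleuri, 1 to 8 for Aconiti, 0 to 1 for Yijung and 1 for Banhasasim from low to high dose. High against vehicle gave 50 to 52, 0 to 16, 5 to 23, 1 to 25, 6 to 24, 3 to 26, 1 to 21 and 2 to 15, and low against vehicle 0 to 12, 0 to 18, 0 to 24, 0 to 24, 0 to 24, 1 to 19, 0 to 19 and 0 to 7. Coptidis gave 0 to 2 from low to medium and 49 to 53 from medium to high dose. At high dose Coptidis and Zizyphi gave 50 to 53, Citri and Cimicifugae 0, Bupleuri and Aconiti 6 to 13, and Yijung and Banhasasim 0 to 1. The differences of dose changes gave 47 to 51, 0, 2 to 9 and 0. Banhasasim, with 1 library a dose, could not be fitted alone from low to high dose, nor could its libraries be left out. Shares of all tested genes are not given beside these ranges either, so they show only how the calls move. The lowest values of the members were far above 3 counts.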
